A study of Homo sapiens with 18 samples.

Results

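The comparison described here sets NF1 mutant H2052 cells against parental H2052 cells without TEAD inhibition. H2052 (NCI-H2052) is a human pleural mesothelioma cell line that carries mutations in the Hippo pathway genes NF2 and LATS2. The 6 libraries were chosen by their labels alone: 3 from NF1 mutant cells and 3 from parental cells, all given the DMSO vehicle for 24 h, out of 18 described RNA-seq libraries. The other described libraries come from the same cells, or from a further mesothelioma line, under DMSO or 1 µM VT107, a TEAD palmitoylation inhibitor. NF1 had been mutated with CRISPR/Cas9: cells received a lentivirus carrying Cas9, then a lentivirus carrying a guide RNA, and were kept under puromycin. The mutant cells are therefore a drug-selected population, and no source describes them as 1 clone. The sources used here do not say which NF1 guide was used for the RNA. For its protein blots the study describes control parental cells with Cas9, but whether the parental cells of the RNA libraries also carried it is not stated. Both groups grew in RPMI with serum, and the study describes 3 biological replicates in each. The question behind the comparison is how loss of NF1 alters the baseline transcriptome of a mesothelioma cell. Every gene of the deposited count table was eligible, 30954 gene identifiers in all, of which 12475 reached a CPM (read count scaled to the size of its library) of 0.5 in each of the 6 libraries and were tested.

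Neurofibromin, the product of NF1, is a GTPase activating protein that speeds the return of RAS from its GTP-bound to its GDP-bound form. Active RAS recruits RAF kinases, which activate MEK and then ERK, and it also engages PI3K. ERK induces its own brakes, among them DUSP phosphatases and Sprouty proteins, together with AP-1 factors and cyclin D1. In mesothelioma, NF2 and LATS mutations leave the coactivators YAP and TAZ free to bind TEAD factors and to induce genes such as CTGF, CYR61 and ANKRD1.

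The parental libraries held between 10950284 and 13418485 counts and the NF1 mutant libraries between 3988479 and 5489092, so low genes were measured less precisely in the mutant cells. Mitochondrially encoded genes took 4.84% to 5.195% of the counts in parental libraries and 3.91% to 4.89% in NF1 mutant libraries. Parental replicate 3 stood apart: its log2 CPM correlated at 0.951 and 0.952 with parental replicates 1 and 2, which correlated at 0.992 with each other, while the NF1 mutant pairs lay between 0.980 and 0.984. Of the genes called below, parental replicate 3 lay beyond its fellow replicates on the NF1 mutant side for 50.7% of those higher and 59.7% of those lower in NF1 mutant cells. The column names of the parental libraries share a prefix that the NF1 mutant columns lack, so genotype and library set cannot be told apart in any value that follows. Of the mesothelial markers, WT1 stood at 35.6 to 43.3 CPM in parental and 38.4 to 51.0 CPM in NF1 mutant libraries, and the keratins KRT8, KRT18 and KRT19, which other epithelia also express, were abundant, whereas KRT5 was at 0 in all 6 libraries and CALB2, a defining mesothelial marker, reached no more than 2.89 CPM. Of the 12 listed mesothelial genes, 9 reached the CPM minimum for testing in all 6 libraries. They include MSLN, PDPN, THBD, LRRN4 and KRT7, whose levels are not given here. The markers thus bear out the label in part, with KRT5 and CALB2 as exceptions, and they do so in both groups. Summed leukocyte markers lay between 0.364 and 5.78 CPM in parental and 1.83 and 2.01 CPM in NF1 mutant libraries, with CD3E and LAPTM5 at 0 in all 6. The endothelial markers VWF and CDH5 and the Schwann cell markers S100B and SOX10 were also at 0 in every library, and summed epithelial carcinoma markers stayed between 3.51 and 5.89 CPM.

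NF1 transcript was lower in the mutant cells. NF1 (ENSG00000196712, hg19 chromosome 17, 29421945 to 29708905) stood at 68.3, 63.0 and 35.1 CPM in parental replicates 1, 2 and 3, and at 12.8, 17.7 and 18.3 CPM in NF1 mutant replicates 1, 2 and 3. All 3 mutant libraries lay below all 3 parental libraries, and parental replicate 3 was the lowest parental value. On the log2 scale, the difference (NF1 mutant minus parental, as for every fold change below) was -1.78 (SE 0.274, adjusted p = 0.00229 by edgeR's quasi-likelihood test with Benjamini-Hochberg adjustment). The call held under all 21 alternative settings, over a range of -2.05 to -1.22. In the libraries given VT107, NF1 stood at 59.6, 54.4 and 25.9 CPM in parental and at 8.04, 17.7 and 15.8 CPM in NF1 mutant cells, a difference of -1.75 that did not pass the test (adjusted p = 0.141). With A-rich windows, transcript length and GC content in 1 offset, the DMSO value came to -1.33 (adjusted p = 0.00191). Gene counts do not show frameshifts, and genotype and library set cannot be told apart. The fall therefore shows a direction that goes with the label and not the mutation itself.

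Across the transcriptome, 3420 of 12475 genes (27.4%) were called at an adjusted p under 0.05. Of these, 1557 were higher (12.5% of genes tested) and 1863 lower (14.9%) in NF1 mutant cells, and the median over all genes tested was -0.0147. A change of 2-fold or more was more often a fall: 341 called genes were at least 2-fold higher and 1140 at least 2-fold lower. The groups did not overlap for 5565 genes (44.6%). The share of calls that were higher, 45.5%, depended on how transcript properties were handled, and reached 56.0% with an offset for transcript length, 55.9% with one for GC content and 56.6% with one for internal A-rich stretches. Without parental replicate 3, 6409 genes were called.

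**Figure D1:**
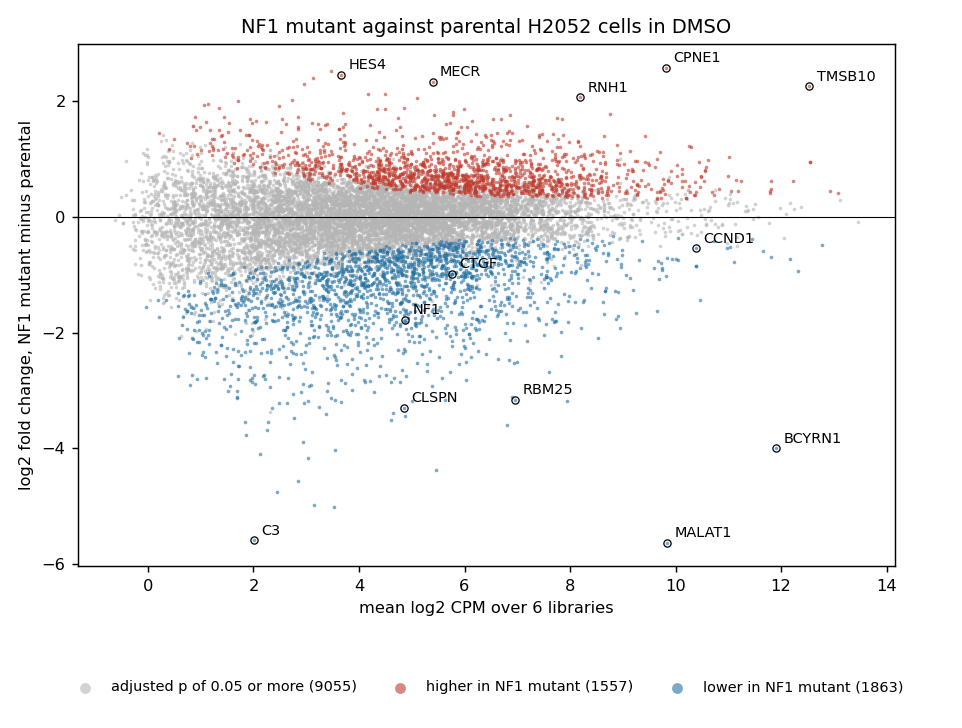
Each point is 1 of 12475 tested genes, with its mean log2 CPM over the 6 libraries on the x axis and its log2 fold change (NF1 mutant minus parental) on the y axis, and genes called higher and lower are coloured. The 1140 genes lowered at least 2-fold outnumber the 341 raised at least 2-fold, and the lower side reaches further from 0, to MALAT1 at -5.64.

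The 12 largest rises among well-expressed genes were led by CPNE1, a calcium-dependent phospholipid-binding protein. CPNE1 stood at 337, 341 and 429 CPM in parental and at 2256, 2484 and 1900 CPM in NF1 mutant libraries, a log2 fold change of 2.58 (SE 0.151, adjusted p = 4.7e-05). The mutant values lay far above the parental values and the groups did not approach each other. TMSB10, a thymosin that binds actin monomers, stood at 2409, 2610 and 3139 CPM in parental and at 14420, 12200 and 12690 CPM in NF1 mutant libraries, a log2 fold change of 2.27 (SE 0.132, adjusted p = 4.7e-05). MECR, the mitochondrial enoyl reductase of fatty acid synthesis, stood at 17.7, 19.2 and 19.4 CPM against 95.7, 95.1 and 93.8 CPM, a log2 fold change of 2.34 (SE 0.129). Its replicates were nearly level within each group. RNH1, the ribonuclease inhibitor, stood at 147, 152 and 130 CPM in parental and at 612, 586 and 610 CPM in NF1 mutant libraries (log2 fold change 2.08). HES4, a transcriptional repressor of the HES family, rose by 2.47 on the log2 scale, from 4.84 to 6.29 CPM in parental to 28.3 to 31.1 CPM in NF1 mutant libraries. OSBPL7, an oxysterol-binding protein family member, rose by 2.53, and CBX8, a Polycomb chromodomain protein, by 2.41, although NF1 mutant replicate 2 held only 10.6 CPM of CBX8 against 26.5 and 27.1 CPM in the others. The remaining rises were SPSB1 (2.13), KPTN (2.13), TJAP1 (2.07), PKN3 (1.89) and FAM195A (1.87). PKN3 overlaps ZDHHC12 on the opposite strand and FAM195A overlaps MSLN on the same strand, so their counts are less certain.

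MALAT1 and BCYRN1, both noncoding RNAs, fell from very high levels. MALAT1, a nuclear long noncoding RNA, stood at 8387, 7428 and 4133 CPM in parental and at 134, 148 and 118 CPM in NF1 mutant libraries, a log2 fold change of -5.64 (SE 0.284, adjusted p = 4.7e-05). BCYRN1, a short cytoplasmic RNA derived from an Alu element, stood at 12500, 14030 and 20460 CPM against 934, 1219 and 783 CPM (log2 fold change -4.00). The groups were widely separated for both, but parental replicate 3 was the lowest parental library for MALAT1 and the highest for BCYRN1. Reads from other Alu copies may be counted as BCYRN1. Among protein-coding genes, NFIC, a nuclear factor I transcription factor, stood at 115, 95.7 and 17.1 CPM in parental and at 1.83, 2.99 and 2.26 CPM in NF1 mutant libraries (log2 fold change -5.02, SE 0.737). TAOK1, a kinase upstream of MST kinases, stood at 62.2, 49.5 and 9.59 CPM against 2.56, 1.84 and 2.26 CPM (log2 fold change -4.17). For both, parental replicate 3 held far less than its fellow parental replicates, though still more than any mutant library. HIST1H4C, a histone H4 gene, behaved alike, with 121, 63.0 and 10.8 CPM in parental and 2.01, 2.99 and 1.00 CPM in NF1 mutant libraries (log2 fold change -4.99). CLSPN, a mediator of the replication checkpoint, was steadier, at 108, 97.4 and 70.5 CPM against 9.70, 8.96 and 9.28 CPM (log2 fold change -3.30, SE 0.203). The other large falls were DNAJC3 (-4.03), CBL (-3.51), BDP1 (-3.44) and ESF1 (-3.40), with 2 transcripts that overlap other genes on the same strand, RP11-603J24.9 (-4.38) and RP11-618G20.1 (-3.41). Parental replicate 3 was the lowest parental library for 11 of the 12 largest falls and 3 of the 12 largest rises. The smallest p of all genes belonged to RBM25, a splicing regulator, which stood at 386, 383 and 350 CPM against 39.3, 42.0 and 43.7 CPM (log2 fold change -3.16, SE 0.122, adjusted p = 1.4e-05).

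**Figure D2:**
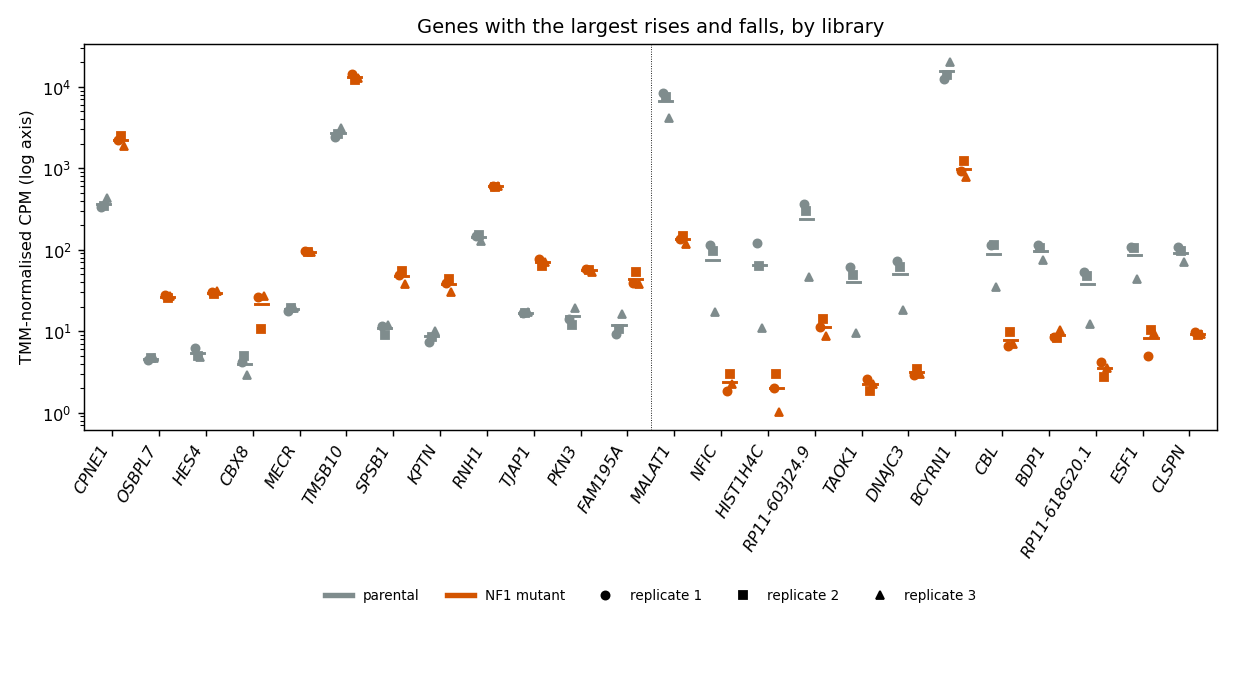
TMM-normalised CPM (log axis) of the 12 top rises and 12 top falls among well-expressed called genes, where each point is 1 library, the point shape gives the replicate and the bars mark group means. Among the falls, the triangle of parental replicate 3 often lies between the other parental points and the NF1 mutant points, as for NFIC at 17.1 CPM.

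Most of the genes with the largest falls held a sequence feature that their choice did not use. An A-rich window is defined here as 20 bases with at least 15 A in the transcript body, the last 300 bases left out, counted without overlap on the longest coding (otherwise the longest) GENCODE v29 transcript of each gene. Of the 12 largest falls, 8 had at least 1 such window and 30 windows in all, and of the 12 largest rises none did. Among the 11466 tested protein-coding genes, 34.0% had 1 or more. The most A-rich 30 bases of the coding sequence (for MALAT1, of the transcript) are printed for 6 lowered and 3 raised genes. These genes were chosen after the values had been seen, by a rule given below that differs between lowered and raised genes. Each A is in capitals, and the number of the first base in the transcript is given after them.
MALAT1 (lower): AgAAgAAAAAAgAcAAgctAggAAAcAAAA
DNAJC3 (lower): AAtgAAgAAgAAAAgAAAAAAgctgAgAAA
BDP1 (lower): AgAAAAgAgAAgAAAcAAtggAAAAAcAAA
ESF1 (lower): tAcAcAAAAAAAtAAgAAAgAgAAAAAAAA
CLSPN (lower): AAAAAAcAAAgtAAAAAAgcAcAAgAAAAA
RBM25 (lower): gAAgAAgAAAAgcAAgAAAAAgAAgAAAAA
MECR (higher): AAgAggAgctAAgAAggcccgAAAtgAAAA
RNH1 (higher): ggAgctAcAgAtAAgcAAcAAcAggctggA
TMSB10 (higher): tgAAgAAAAcggAgAcgcAggAgAAgAAcA

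These stretches began at base 2021 of MALAT1, 1399 of DNAJC3, 741 of BDP1, 591 of ESF1, 817 of CLSPN, 2044 of RBM25, 861 of MECR, 2440 of RNH1 and 162 of TMSB10. They held between 20 and 23 A of 30 in the lowered genes, and 15 in MECR and TMSB10 and 12 in RNH1. That contrast was largely fixed by the choice. From the 12 largest falls, those with at least 20 A were taken, and RBM25 was added for its smallest p. From the 12 largest rises, those with the smallest p were taken. Over all 12 largest rises the number of A ran from 10 to 18, with CPNE1 at 18, and over all 12 largest falls from 9 to 23, with BCYRN1 at 9, HIST1H4C at 12 and NFIC at 13, so the ranges overlap. In hg19, ESF1 spans chromosome 20, 13694969 to 13765532, CLSPN chromosome 1, 36185819 to 36235568, and RBM25 chromosome 14, 73525144 to 73588122.

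The relation to A-rich windows ran through the whole table. The 7570 protein-coding genes with no window had a median log2 fold change of 0.104, with 16.1% called higher and 8.14% lower. The median was -0.206 with 1 window (1998 genes), -0.373 with 2 (941 genes), -0.463 with 3 (477 genes), -0.588 with 4 (219 genes) and -0.747 with 5 or more (261 genes). In that last class 2.30% of genes were called higher and 49.8% lower. Across the 11466 genes, which share the same 6 libraries and are not independent, Spearman's rho with the log2 fold change was -0.329 for A-rich windows, -0.243 for transcript length and 0.233 for GC content, and these properties are themselves related. The parental libraries and the NF1 mutant libraries differed in depth and in column naming along the same line, and the part of library preparation in this relation was not tested. For many gene lists below, counts are also given for members without a window or with an offset for the windows, and a combined offset takes windows, length and GC content together. These settings were chosen after the data had been seen. Each offset was fitted on these same 6 libraries, so it takes out the mean group difference of genes alike in these properties. A genotype effect shared by such genes would be taken out too, and the offset cannot tell it from a difference of library set. A value that shrinks or turns under an offset is to be read with that limit. Each count of called members below is to be read beside the shares over all genes tested, 12.5% higher and 14.9% lower.

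**Figure D3:**
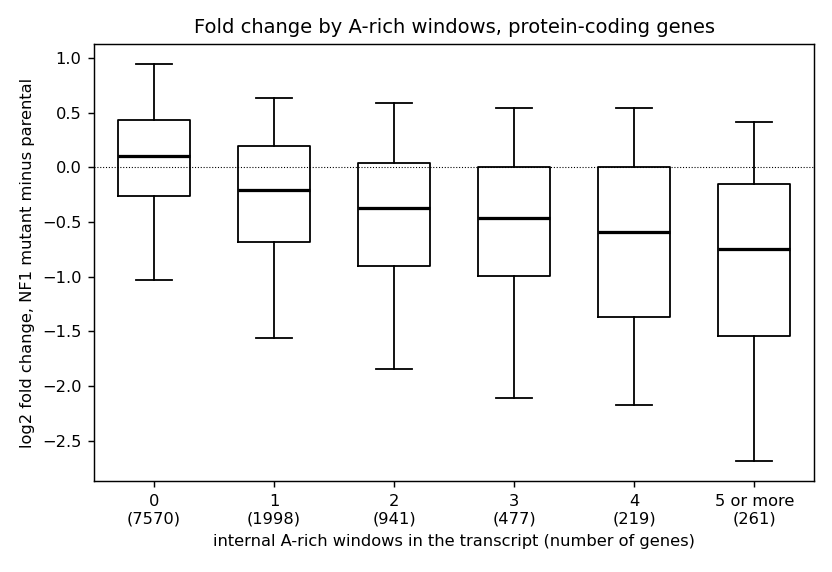
Log2 fold change (NF1 mutant minus parental, y axis) of protein-coding genes grouped by the number of internal A-rich windows in the transcript (x axis, number of genes in brackets). Box medians step down from 0.104 with no window to -0.747 with 5 or more.

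Among the brakes on RAS, NF1 was not alone in changing, and the RAS genes themselves moved little. LZTR1, an adaptor that directs RAS proteins to degradation, stood at 15.5, 18.3 and 18.1 CPM in parental and at 50.3, 42.7 and 44.4 CPM in NF1 mutant libraries, a log2 fold change of 1.41 (SE 0.157, adjusted p = 0.000489). All mutant values were higher, and the call held under all 21 alternatives. RASA3, a further GTPase activating protein, fell by 0.62 on the log2 scale (adjusted p = 0.0136), from 47.2, 48.0 and 57.8 CPM to 32.9, 32.4 and 33.9 CPM. RASAL2, of the same enzyme class, had a log2 fold change of -0.74 (adjusted p = 0.0290). That direction turned to 0.119 with an offset for A-rich windows, of which RASAL2 has 7. With that offset the list held 1 call higher and 2 lower. In all, 1 of 10 tested brakes (10%) was higher and 3 (30%), NF1 included, were lower, beside 12.5% and 14.9% over all genes. RASA1 (-0.00), RASA2 (-0.09), SPRED1 (-0.08), SPRED2 (-0.12), and DAB2IP (-0.14) did not pass the test.

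Of 10 RAS family GTPases, none was higher and 2 (20%) were lower, beside 14.9% lower over all genes, with a median of -0.15. RRAS stood at 61.5, 59.98 and 185 CPM in parental and at 38.1, 49.2 and 30.4 CPM in NF1 mutant libraries (log2 fold change -1.38, adjusted p = 0.0427). Parental replicate 3 was by far the highest library, and without it the log2 fold change was -0.64 (adjusted p = 0.000599). RALA fell by 0.59 (adjusted p = 0.0124), and came to -0.29 (adjusted p = 0.205) with the combined offset. The list held 2 calls higher and 1 lower with the offset for A-rich windows, and 3 higher and 2 lower without parental replicate 3. NRAS stood at 32.7, 43.8 and 37.4 CPM against 34.6, 32.9 and 35.1 CPM (-0.15, adjusted p = 0.507), and HRAS (-0.15) did not pass the test either. Among 11 exchange factors and adaptors, RAPGEF1 rose (0.82, adjusted p = 0.00162), and GRB2 (-0.51), SOS2 (-1.18) and PTPN11 (-0.79) fell. None of these 3 falls remained with an offset for A-rich windows, where the list held 1 call higher and none lower.

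The RAF, MEK and ERK kinases and their scaffolds gave few calls. MAPKAPK2, a kinase acting below p38 and ERK, stood at 195, 217 and 267 CPM in parental and at 391, 414 and 421 CPM in NF1 mutant libraries (log2 fold change 0.85, SE 0.137, adjusted p = 0.00269), and the groups did not overlap. MAPK7, which encodes ERK5, was higher by 0.72 (adjusted p = 0.0231), a call kept under only 14 of 21 alternatives. The other 11 of 13 tested members did not pass, among them BRAF (0.63), MAP2K2 (0.33), MAP2K1 (-0.25), ARAF (-0.49) and RPS6KA3 (-0.80). The list median was -0.011, beside -0.0147 for all genes. Without parental replicate 3 the list held 3 calls higher and 3 lower, and with the offset for A-rich windows 3 higher and none lower.

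Among 16 tested genes that ERK induces, many of which feed back on the cascade, 4 fell and 2 rose. DUSP6, the cytoplasmic phosphatase of ERK, stood at 48.9, 50.1 and 76.2 CPM in parental and at 26.7, 26.7 and 38.9 CPM in NF1 mutant libraries, a log2 fold change of -0.93 (SE 0.230, adjusted p = 0.0178). CCND1, which encodes cyclin D1, stood at 1581, 1630 and 1644 CPM against 1050, 1149 and 1137 CPM (log2 fold change -0.54, adjusted p = 0.00470). The mutant libraries were lower throughout for both, but with an offset for A-rich windows, 2 in each gene, the values came to -0.514 (adjusted p = 0.180) and -0.105 (adjusted p = 0.539). FOSL1, an AP-1 subunit without a window, stood at 296, 322 and 352 CPM against 210, 273 and 208 CPM (log2 fold change -0.49, adjusted p = 0.0330). IER3 stood at 223, 235 and 494 CPM against 150, 139 and 179 CPM (log2 fold change -1.02, adjusted p = 0.0299), and at -0.57 without parental replicate 3, its highest library. MYC rose, from 15.4, 17.3 and 15.1 CPM to 33.7, 22.3 and 31.9 CPM (log2 fold change 0.88, adjusted p = 0.0115), as did the membrane protein gene EMP1, from 407, 442 and 376 CPM to 597, 601 and 551 CPM (log2 fold change 0.51, adjusted p = 0.0101). DUSP5 (0.37, adjusted p = 0.0543) and EPHA4 (-1.19, adjusted p = 0.0544) did not pass the test. Of 20 listed members 16 were tested. Of these, 2 (12.5%) were higher, the same share as over all genes, and 4 (25.0%) lower, beside 14.9%. The CPM minimum kept out the Sprouty gene SPRY4, with 43, 49 and 37 counts in parental and 1, 2 and 3 in NF1 mutant libraries. It also kept out EGR1, with 48, 72 and 39 counts against 6, 1 and 2. The parental libraries were deeper, and mean CPM was 3.49 against 0.465 for SPRY4 and 4.25 against 0.61 for EGR1. Both were named after their values had been seen and carry no test. Of 118 genes kept out with means at least 4-fold apart and 3 CPM reached in 1 group, 4 were higher in NF1 mutant cells. The list median was -0.223, and -0.063 over the 7 members with no A-rich window. Leaving out 1 library at a time gave 0 to 3 members higher and 1 to 7 lower, and the calls of DUSP6, IER3, MYC, FOSL1 and EMP1 were lost without NF1 mutant replicate 1. Among the AP-1 factors, BATF3 rose from 27.5, 25.4 and 29.1 CPM to 51.0, 51.0 and 50.9 CPM (0.90, adjusted p = 0.00206) and MAFF fell (-0.81, adjusted p = 0.0436), while JUN (-0.02), JUNB (-0.03), JUND (-0.37) and FOSL2 (0.17) did not pass.

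**Figure D4:**
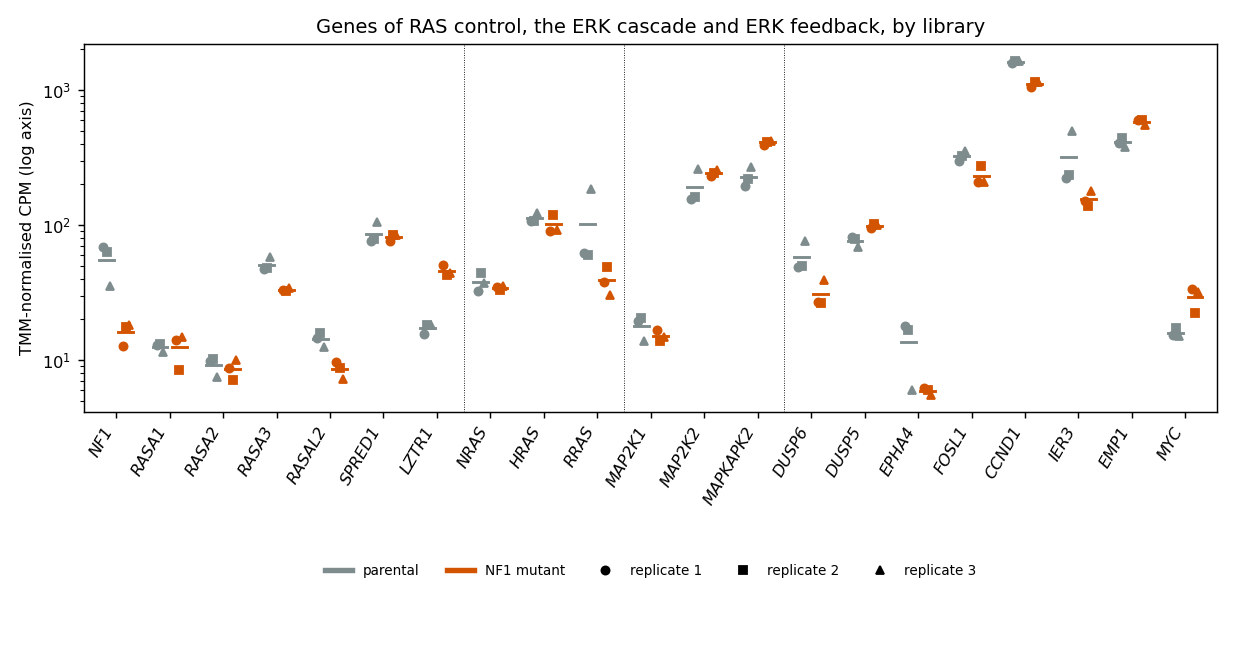
TMM-normalised CPM (log axis) of genes of RAS control, RAS family members, the ERK cascade and ERK-induced genes, with 1 point per library, shapes for replicates and bars for group means. NF1 and CCND1 lie lower and LZTR1 and MAPKAPK2 higher in all 3 NF1 mutant libraries, whereas the NRAS and HRAS points of the groups overlap.

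In the PI3K branch, AKT1 rose while several partners fell. AKT1 stood at 106, 118 and 96.0 CPM in parental and at 294, 231 and 308 CPM in NF1 mutant libraries (log2 fold change 1.38, SE 0.148, adjusted p = 0.000416). PDPK1, the kinase that activates AKT (-1.94), RICTOR, a subunit of mTOR complex 2 (-1.33), and PIK3R1, a regulatory subunit of PI3K (-1.10), fell. The 3 genes that fell each have 1 or 2 A-rich windows, and PIK3R1 came to -0.55 (adjusted p = 0.0765) with the combined offset. Of 14 members, 2 (14.3%) were higher and 3 (21.4%) lower, beside 12.5% and 14.9% over all genes. The counts were 2 and 2 under the offset for A-rich windows and 5 and 5 without parental replicate 3.

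Several YAP/TAZ-TEAD target genes fell in NF1 mutant cells without any TEAD inhibitor. AMOTL2, an angiomotin family member, stood at 212, 183 and 185 CPM in parental and at 88.7, 78.1 and 94.6 CPM in NF1 mutant libraries, a log2 fold change of -1.15 (SE 0.129, adjusted p = 0.000524). ANKRD1, a muscle ankyrin repeat protein, stood at 147, 135 and 156 CPM against 74.1, 58.1 and 54.7 CPM (log2 fold change -1.23, adjusted p = 0.000773). CTGF, a matricellular protein, stood at 63.9, 71.0 and 97.3 CPM against 36.4, 37.5 and 44.2 CPM (log2 fold change -0.98, adjusted p = 0.00579). The groups were apart for these 3 genes, and the AMOTL2 call held under every alternative and the CTGF call under 20 of 21. CYR61, chosen for display after its values had been seen because it is a standard target, stood at 418, 465 and 498 CPM against 467, 339 and 599 CPM (0.02, adjusted p = 0.941), with full overlap of the groups. FJX1 (-2.17), PTPN14 (-1.79), ASAP1 (-0.72) and TGFB2 (-0.59) also fell, but with the combined offset ASAP1 came to -0.23 (adjusted p = 0.142), TGFB2 to -0.24 (adjusted p = 0.331) and PTPN14 to -1.18 (adjusted p = 0.0596). CCDC80 had a log2 fold change of -0.73, which turned to 0.124 with an offset for its 5 A-rich windows. In all, 9 of 25 tested targets were lower and none higher, beside 14.9% lower over all genes, and the list median was -0.304. Among the 13 targets with no A-rich window, 3 were lower and the median was -0.13, and with the offset 4 of 25 were lower. Without parental replicate 3, 4 targets were higher and 15 lower. The list was drawn up with the study's account of these libraries known and is not independent evidence of a direction.

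Among Hippo pathway components, some kinases fell and some regulators rose. MAP4K4, a kinase that activates LATS, stood at 254, 239 and 276 CPM in parental and at 86.4, 94.4 and 86.6 CPM in NF1 mutant libraries (log2 fold change -1.52, SE 0.118, adjusted p = 0.000117). The kinase STK4 (-0.77) and the scaffold WWC2 (-1.82) fell with it, as did TAOK1. The STK4 value shrank to -0.09 (adjusted p = 0.658) with the combined offset. TEAD4, one of the TEAD factors themselves, rose by 0.64 (adjusted p = 0.0104; 0.42 and adjusted p = 0.0903 with the combined offset), and TRIP6, a LIM protein that inhibits LATS, rose by 0.82 (adjusted p = 0.00192). Of 28 tested components, 4 (14.3%) were higher and 6 (21.4%) lower, beside 12.5% and 14.9% over all genes, with a median of -0.232. The counts came to 6 higher and 4 lower with an offset for A-rich windows and to 5 higher and 14 lower, of 29 then tested, without parental replicate 3.

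In the WNT pathway, several genes of the intracellular core rose. DVL2, a Dishevelled adaptor, stood at 38.9, 36.7 and 30.9 CPM in parental and at 103, 104 and 86.6 CPM in NF1 mutant libraries (log2 fold change 1.46, SE 0.148, adjusted p = 0.000319). CTNNB1, which encodes beta-catenin, stood at 149, 136 and 181 CPM against 223, 272 and 230 CPM (log2 fold change 0.64, adjusted p = 0.0122). Both were higher in every NF1 mutant library than in any parental library. DVL1 (0.51), the scaffold AXIN1 (0.86), the kinase GSK3A (0.91) and the repressor TCF7L1 (0.67) rose too, and APC, a scaffold of the beta-catenin destruction complex (-0.78), and ZNRF3, a ligase that removes WNT receptors (-1.72), fell. Neither fall passed the test with the combined offset, where APC came to -0.13 (adjusted p = 0.588) and ZNRF3 to -1.35 (adjusted p = 0.0595). The 18 tested members of the beta-catenin core and its feedback genes thus include both activators and inhibitors among the 7 higher and the 4 lower. The median was 0.182, and 0.508 over the 7 members with no A-rich window. With an offset for those windows, 8 were higher and none lower. Of 17 ligands and receptors, WNT5B (-0.48, adjusted p = 0.0132) and LRP5 (-0.91, adjusted p = 0.0293) fell and none rose, with a median of -0.482. That is 11.8% lower, beside 14.9% over all genes, and the difference between the WNT lists was not tested. The study had named WNT signalling, estrogen response, oxidative phosphorylation and fatty acid metabolism from these same libraries, so the counts for those lists are not independent evidence of a direction.

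Estrogen response genes showed no common direction. IGFBP4, an insulin-like growth factor binding protein, stood at 515, 514 and 674 CPM in parental and at 1084, 1380 and 1265 CPM in NF1 mutant libraries (log2 fold change 1.13, SE 0.148, adjusted p = 0.00112). The retinoic acid receptor gene RARA (0.72) and XBP1 (0.59), a factor of the unfolded protein response, rose as well. KRT19 stood at 1090, 1086 and 2324 CPM against 3123, 2516 and 3567 CPM (log2 fold change 1.03, adjusted p = 0.0284), where parental replicate 3 lay closest to the mutant libraries. CCND1 and PRSS23 (-0.47) fell, and NRIP1, a nuclear receptor corepressor with 5 A-rich windows, had a value of -0.75 that turned to 0.115 with the offset. PRSS23 came to -0.23 (adjusted p = 0.279) with the combined offset. Of 17 tested members, 4 (23.5%) were higher and 3 (17.6%) lower, beside 12.5% and 14.9% over all genes, with a median of 0.019. With the offset for A-rich windows 5 were higher and none lower.

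Nuclear genes of oxidative phosphorylation rose more often than they fell, by modest amounts. ATP5B, the catalytic beta subunit of ATP synthase, stood at 363, 346 and 297 CPM in parental and at 646, 718 and 639 CPM in NF1 mutant libraries (log2 fold change 0.99, SE 0.120, adjusted p = 0.000754). NDUFAB1, the acyl carrier subunit of complex I, stood at 199, 173 and 161 CPM against 303, 306 and 336 CPM (log2 fold change 0.82, adjusted p = 0.00193). The groups did not overlap for either gene. ATP5O (0.81), ATP5L (0.81), ATP5G1 (0.79), COX7B (0.61) and ATP5J (0.56) rose, and ATP5J2 (0.81), which overlaps PTCD1 on its own strand. ATP5D, the delta subunit of ATP synthase, fell from 27.4, 30.5 and 34.1 CPM to 12.99, 16.3 and 13.3 CPM (log2 fold change -1.11, adjusted p = 0.00269). In complex I, 8 of 38 tested genes were higher and none lower, NDUFS4 (0.63), NDUFA8 (0.59) and NDUFA4 (0.52) among them, with a list median of 0.252. In complexes II to V, 16 of 38 were higher and 1 lower, with a median of 0.231, beside 12.5% higher and 14.9% lower over all genes. Most members have no A-rich window, and the medians over those alone were 0.231 in both lists. The count in complex I depended on the libraries used: leaving out 1 at a time gave 2 to 19 genes higher, with 19 higher and 4 lower without parental replicate 3. For complexes II to V, leaving out 1 library gave 8 to 20 higher, and over all alternatives the number ran from 0 to 20. Of the 13 mRNAs encoded by mitochondrial DNA, none was higher and 3 were lower, MT-ND2 (-0.73, adjusted p = 0.00141), MT-CO3 (-0.48, adjusted p = 0.0124) and a transcript overlapping MT-ATP6 whose parental values ran from 33.4 to 1041 CPM.

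Lipid synthesis genes included several clear rises. DHCR7, the last enzyme of cholesterol synthesis, stood at 38.5, 48.4 and 46.6 CPM in parental and at 116, 117 and 101 CPM in NF1 mutant libraries (log2 fold change 1.32, SE 0.141, adjusted p = 0.000409). FASN, fatty acid synthase, stood at 202, 203 and 192 CPM against 373, 452 and 396 CPM (log2 fold change 1.03, adjusted p = 0.000524). Both calls held under all 21 alternatives. LSS (0.84), lanosterol synthase, rose, and the desaturase genes FADS1 (-0.55) and SC5DL (-0.71) fell, so that 5 of 24 were higher and 2 lower, with a median of 0.222. Neither desaturase call held with the combined offset (FADS1 -0.21, SC5DL -0.41), and the list then held 9 higher and none lower. Without parental replicate 3, 10 were higher and 2 lower. In the fatty acid oxidation list, 2 of 25 were higher and 1 lower, a smaller share than the 12.5% and 14.9% over all genes. The higher genes were ECHS1, an enoyl-CoA hydratase (0.44, and 0.24 with the combined offset, adjusted p = 0.108), and MECR, which acts in fatty acid synthesis rather than oxidation, and the lower gene was CPT1C, a carnitine palmitoyltransferase form (-1.43). Without parental replicate 3, 9 were higher and 3 lower.

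Genes of mitosis rose more often than they fell. CENPM, a centromere protein, stood at 32.01, 32.1 and 35.95 CPM in parental and at 127, 117 and 119 CPM in NF1 mutant libraries (log2 fold change 1.86, SE 0.125, adjusted p = 6.5e-05). PLK1, a mitotic kinase, stood at 127, 128 and 239 CPM against 417, 450 and 353 CPM (log2 fold change 1.31, adjusted p = 0.00561). Parental replicate 3 was the highest parental library for both, and the groups stayed apart. The securin gene PTTG1 (1.22), AURKB (1.14), KIF20A (0.98), CENPA (0.96), CDC20 (0.91) and CCNB2 (0.82) rose. Of 24 tested members, 12 (50%) were higher and 1 (4.17%) lower, with a median of 0.526. Without parental replicate 3 the counts were 14 and 5, and over all alternatives 3 to 15 were higher and 0 to 5 lower. Of the 18 members without an A-rich window, 11 were higher and none lower. The 1 lower gene, named after its value had been seen, was TOP2A, topoisomerase II alpha, at 1298, 1190 and 358 CPM against 294, 334 and 235 CPM (log2 fold change -1.72, adjusted p = 0.0143), and its parental replicate 3 stood nearer to the mutant than to the parental libraries. Cyclin and CDK genes had 6 of 17 (35.3%) higher and 4 (23.5%) lower, and 6 and 2 with the offset for A-rich windows. CDK4, the cyclin D partner kinase, stood at 274, 268 and 220 CPM against 557, 576 and 519 CPM (log2 fold change 1.12, adjusted p = 0.000489). The inhibitors CDKN1B (1.04) and CDKN2C (0.89) rose with it, as did CCNE1 (0.79), and CCNE2 (-1.18), E2F3 (-1.83) and CDK6 (-1.55) fell. The CDK6 value came to -0.56 with the combined offset (adjusted p = 0.118). In the DNA replication list 4 of 29 were higher, RRM2 (0.79), GINS2 (0.94), MCM7 (0.69) and FEN1 (0.33), and 4 lower, CLSPN, RRM1 (-1.22), LIG1 (-0.61) and RFC3 (-0.85), shares of 13.8% each beside 12.5% and 14.9% over all genes. The call of FEN1 was lost with the combined offset (0.21, adjusted p = 0.159).

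Of 75 tested ribosomal protein genes, 22 (29.3%) were higher and 7 (9.33%) lower, beside 12.5% and 14.9% over all genes, with a median of 0.133. These counts depended on the setting: leaving out 1 library gave 9 to 31 higher and 3 to 15 lower, the combined offset 16 higher and 12 lower, and all alternatives together 0 to 35 higher and 0 to 16 lower. RPS15 stood at 816, 782 and 805 CPM in parental and at 1780, 1919 and 1930 CPM in NF1 mutant libraries (log2 fold change 1.23, SE 0.0986, adjusted p = 0.000120). RPS3 (0.63), RPS28 (0.61) and RPL15 (0.53) rose, and RPL27A (-0.94), RPL39 (-0.89) and RPL30 (-0.69) fell. Many of these genes have near-identical processed copies, and how the study's counting shared such reads is not given in the sources used here. Ribosome biogenesis factors had 4 of 31 higher and 7 lower (5 and 6 with the offset for A-rich windows), among them the nucleolar proteins NOP58 (-1.64), DKC1 (-1.45), NCL (-0.72) and WDR43 (-1.81) on the lower side and NOP2 (1.05) on the higher.

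Many SR-related splicing genes and large chromatin genes fell. In the list of RBM, LUC7L and SR-related genes, 12 of 24 were lower and none higher, with a median of -0.90. After RBM25 came SREK1, at 169, 173 and 164 CPM in parental and 55.1, 51.9 and 58.5 CPM in NF1 mutant libraries (log2 fold change -1.61, SE 0.117, adjusted p = 9.4e-05). PNISR (-2.14), PRPF38B (-2.32), THRAP3 (-2.32), SRRM1 (-2.52) and SON (-1.79) also fell. The 7 members with no A-rich window had a median of -0.097 and 1 call lower, and with the offset the list held 10 calls lower and 1 higher, with a median of -0.491. Large chromatin and chromosome genes had 16 of 23 lower and none higher, with a median of -1.27, and all 23 values were below 0. NIPBL, the cohesin loader, stood at 239, 228 and 238 CPM against 103, 91.4 and 97.9 CPM (log2 fold change -1.27, SE 0.112, adjusted p = 0.000175). MLL (-2.45) and MLL3 (-2.22), histone methyltransferases, the remodellers CHD4 (-1.39), CHD2 (-1.65) and BPTF (-1.96), and the kinetochore motor CENPE (-1.82) fell. Only 2 of the 23 lack an A-rich window, and with the offset 12 calls were lower and 1 higher. The core SR and HNRNP genes, of which 18 of 21 lack a window, had 5 higher and 3 lower with a median of 0.033: HNRNPH1 (0.92), HNRNPK (0.62), SRSF6 (0.60), HNRNPA2B1 (0.53) and HNRNPC (0.49) rose, and SRSF11 (-2.47), SRSF4 (-1.87) and SRSF10 (-0.58; -0.49 and adjusted p = 0.0894 with the combined offset) fell.

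Several nuclear long noncoding RNAs fell, while some hosts of small nucleolar RNAs rose. NEAT1, the scaffold of paraspeckles, stood at 1144, 1114 and 665 CPM in parental and at 290, 253 and 227 CPM in NF1 mutant libraries (log2 fold change -1.93, SE 0.211, adjusted p = 0.000454). KCNQ1OT1 (-2.33) and TUG1 (-0.87; -0.51 and adjusted p = 0.113 with the combined offset) fell with it and with MALAT1, and MEG3, with 10 A-rich windows, had a value of -0.78 that came to 0.046 with the offset. The host genes GAS5 (0.69) and SNHG8 (0.50) rose. Across that list 5 of 18 were higher and 5 lower, and 6 and 3 with the offset.

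Several genes of complement and NF-kB signalling fell. C3, the central complement protein, had 295, 369 and 385 counts in the parental libraries and 3, 3 and 2 counts in the NF1 mutant libraries (fitted log2 fold change -5.60, adjusted p = 4.7e-05). With so few reads in the mutant libraries, the size of that fall is poorly determined. The complement proteases C1R (-1.60) and C1S (-2.06) and the alternative pathway factor CFB (-3.14) fell, and SERPING1, which inhibits C1R and C1S, rose by 0.59 (adjusted p = 0.0280), giving 1 of 12 higher and 4 lower. Of the 12 values 6 were below 0 and 6 above, and without parental replicate 3 the list held 3 calls higher and 4 lower, with a median of -0.042. In the NF-kB list, 7 of 18 were lower and none higher, with a median of -0.907, and 4 of 14 without an A-rich window were lower, with a median of -0.827. Without parental replicate 3, 1 of the 18 was higher and 8 were lower, and the median shrank to -0.473. BIRC3, an inhibitor of apoptosis, stood at 28.9, 30.5 and 39.9 CPM in parental and at 5.49, 1.38 and 5.27 CPM in NF1 mutant libraries (log2 fold change -3.01, SE 0.374, adjusted p = 0.000862). ICAM1, an adhesion molecule, stood at 17.6, 17.96 and 33.9 CPM against 3.11, 5.28 and 6.27 CPM (log2 fold change -2.26, adjusted p = 0.00255). Both calls held under all 21 alternatives. The NF-kB subunits NFKB2 (-1.91) and RELB (-1.19) and the feedback inhibitors NFKBIA (-0.89) and TNFAIP3 (-0.77; -0.57 and adjusted p = 0.0770 with the combined offset) fell. For IL1B, parental replicate 3 held 183 CPM against 26.9 and 34.3 CPM in the others, and the value of -2.35 (adjusted p = 0.0410) lost its call when any of the 3 mutant libraries was left out.

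STAT3 and some genes that act above it fell as well. STAT3 stood at 106, 114 and 210 CPM in parental and at 38.2, 42.3 and 45.7 CPM in NF1 mutant libraries (log2 fold change -1.77, SE 0.260, adjusted p = 0.00182). The kinase JAK1 (-0.95), the shared receptor subunit IL6ST (-0.82) and the STAT3 target PIM1 (-1.47) were lower, 4 of 13 tested in that list, and none was higher. Without parental replicate 3, 2 members were higher and 5 lower, and STAT3 came to -1.41. TYK2, another kinase of the list, had a value of 0.49 (adjusted p = 0.0521), and of 0.64 (adjusted p = 6.9e-05) without that replicate. The IL6ST call was lost with the combined offset (-0.39, adjusted p = 0.0757), and the offset for A-rich windows gave 1 call higher and 4 lower. SOCS3, the feedback inhibitor, had a value of 0.41 (adjusted p = 0.188). Interferon-stimulated genes had 1 of 16 higher, IFI35 (0.93), and none lower. Among MHC class I genes B2M (-0.92) and HLA-C (-0.46) fell, and the immunoproteasome subunit PSMB9 rose (0.75, adjusted p = 0.0496).

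Matrix and adhesion genes fell in some families and rose in others. COL6A3 stood at 99.3, 112 and 282 CPM in parental and at 28.0, 27.6 and 31.1 CPM in NF1 mutant libraries (log2 fold change -2.51, SE 0.383, adjusted p = 0.00216). COL4A2 (-1.39), COL8A1 (-0.99) and COL12A1 (-0.86) fell, and COL1A1 rose by 0.72 (adjusted p = 0.0112), so that 1 of 12 collagens was higher and 4 lower (1 and 3 with the offset for A-rich windows). COL8A1 came to -0.58 (adjusted p = 0.142) with the combined offset. The collagen median of -0.754 shrank to -0.205 without parental replicate 3. MMP14, a membrane metalloprotease, stood at 136, 143 and 286 CPM against 49.0, 62.3 and 71.8 CPM (log2 fold change -1.63, adjusted p = 0.00454), and MMP3 (-1.11) and MMP1 (-0.998) fell too. Among further matrix genes LRRC15 (2.31), MFAP5 (1.46), the lysyl oxidase LOX (0.76) and FBLN1 (0.64) rose, LOXL2 (-1.03) and FBN1 (-1.001) fell, and THBS1, with 3 A-rich windows, had a value of -0.42 that turned to 0.111 with the offset. ITGA3, the laminin receptor subunit, stood at 500, 450 and 333 CPM against 1069, 1247 and 1063 CPM (log2 fold change 1.40, adjusted p = 0.000600), while ITGA1 (-1.20) and ITGB1 (-0.33) fell. FBN1 came to -0.72 (adjusted p = 0.132), FBLN1 to 0.51 (adjusted p = 0.0856) and ITGB1 to -0.03 (adjusted p = 0.904) with the combined offset. The mesenchymal regulators ZEB2 (-1.43) and ZEB1 (-0.59) and N-cadherin, CDH2 (-0.96), fell, although the ZEB1 call was kept under only 10 of 21 alternatives and its value came to -0.05 (adjusted p = 0.861) with the combined offset. The intermediate filament gene vimentin, VIM, had a value of 0.31 (adjusted p = 0.177).

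Actin genes showed a strong contrast between the thymosins. TMSB10 rose as given above, and TMSB4X, its relative, stood at 127, 143 and 339 CPM in parental and at 43.5, 31.9 and 42.7 CPM in NF1 mutant libraries (log2 fold change -2.36, adjusted p = 0.00232). Both have closely related copies in the genome. CALD1, an actin- and myosin-binding protein, stood at 420, 390 and 362 CPM against 118, 109 and 104 CPM (log2 fold change -1.82, SE 0.119, adjusted p = 6.2e-05), and it lay apart in every library. TAGLN2 (-1.77), TPM1 (-0.95), VCL (-0.89) and ACTN1 (-0.80) fell, and calponin, CNN1, rose (1.33). In all, 4 of 23 actin genes were higher and 9 lower, and with the offset for A-rich windows 5 and 9.

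Among receptors, EGFR stood at 206, 198 and 114 CPM in parental and at 75.4, 62.3 and 79.5 CPM in NF1 mutant libraries (log2 fold change -1.25, SE 0.225, adjusted p = 0.00452), a call kept under all 21 alternatives. Its ligands TGFA (-0.76) and HBEGF (-0.87) fell, while ERBB2 (-0.33) and ERBB3 (-0.34) did not pass. Of 14 other receptor tyrosine kinases, the collagen receptor DDR2 (-3.07), INSR (-1.002) and FGFR1 (-0.69) fell and none rose. INSR has 5 A-rich windows, and its value came to -0.21 with the combined offset (adjusted p = 0.470). FGFR1 came to -0.38 (adjusted p = 0.142) and HBEGF to -0.72 (adjusted p = 0.0521).

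Metabolic and stress genes completed the lists. In glycolysis and hypoxia, 8 of 21 were higher and 2 lower, with a median of 0.417, and 20 of the 21 have no A-rich window. Leaving out 1 library at a time gave 4 to 11 higher, and all alternatives together 0 to 12. With the combined offset the median was 0.265. PFKL, a phosphofructokinase, stood at 60.6, 67.2 and 74.7 CPM in parental and at 157, 192 and 156 CPM in NF1 mutant libraries (log2 fold change 1.32, SE 0.142, adjusted p = 0.000416). PGK1 (0.73), PGAM1 (0.62), ALDOA (0.55) and GAPDH (0.45), all glycolytic enzymes, and the peptide gene ADM (0.83) rose, whereas the hypoxia factors EPAS1 (-0.83) and HIF1A (-0.73) fell. The GAPDH call was lost with the combined offset (0.26, adjusted p = 0.138). In the stress list, the amino acid sensor kinase EIF2AK4 fell by 2.55 (adjusted p = 4.7e-05), and its downstream factor ATF4 (0.67) and PHGDH, the entry enzyme of serine synthesis (1.19), rose. The median of that list was -0.241, with 3 of 18 (16.7%) higher and 3 (16.7%) lower, beside 12.5% and 14.9% over all genes. With the offset for A-rich windows the counts were 5 and 2. Proteasome subunits had 6 of 28 (21.4%) higher and 4 (14.3%) lower (7 and 3 with that offset), with PSMA7 (-1.66) and PSMD11 (-1.48) among those lower. In the NOTCH list, RBPJ, the DNA-binding partner of NOTCH, fell by 1.47 (4 A-rich windows) and HES4, NOTCH2 (0.62) and MAML1 (0.80) rose. In the BCL2 family, BAX fell from 37.2, 28.9 and 56.3 CPM to 8.05, 10.1 and 10.3 CPM (-2.11, adjusted p = 0.00109), and HRK by 1.09 (-0.70 and adjusted p = 0.128 with the combined offset). Of 9 tested mesothelial genes, LRRN4 (1.18) and KRT19 rose and none fell. MSLN (-0.31) and WT1 (0.19) did not pass the test.

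**Figure D5:**
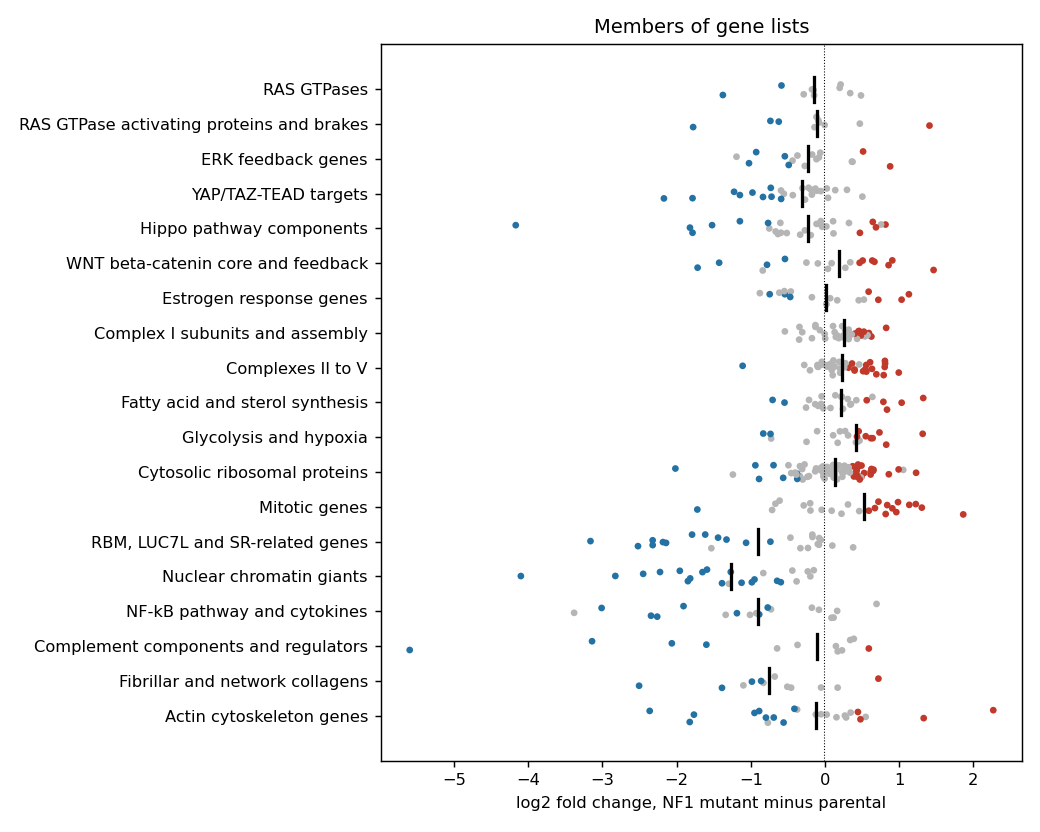
Log2 fold changes (NF1 mutant minus parental, x axis) of the tested members of the gene lists named on the y axis, 1 point per gene, with the dotted line at the median of all 12475 genes. Points of the large chromatin genes and of the RBM, LUC7L and SR-related genes lie mostly to the left, with list medians of -1.27 and -0.90, and points of the mitotic genes mostly to the right, with a median of 0.526.

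The same cells under VT107 gave a further set of 3 against 3 libraries that shares no library with the DMSO comparison, though it shares the naming of the library sets. Of 11654 genes tested there, edgeR called 0, with 1945 at an unadjusted p under 0.05, whereas DESeq2 called 682 and limma's voom with quality weights 3599. The direction was nonetheless mostly that seen in DMSO: of 3257 genes called in DMSO and tested in VT107, 3136 (96.3%) had the same sign. That share covers called genes alone, with no share over all genes beside it, and says nothing of the sizes. Both conditions set the same cell populations and the same library sets against each other. A shared sign therefore does not separate genotype from library set. MALAT1 stood at -5.70 in VT107 (-5.64 in DMSO), CPNE1 at 2.58 (2.58), MECR at 2.59 (2.34), HES4 at 3.27 (2.47) and CTGF at -1.62 (-0.98). The difference between the 2 effects of genotype was tested for 11432 genes, of which 0 passed by edgeR and 78 had an unadjusted p under 0.05, and 0 of 370 named genes passed. A missed threshold in so few libraries does not show that the effects are alike. Some list medians differed between the conditions: that of complex I was 0.252 in DMSO and 0.092 in VT107, that of complexes II to V 0.231 and 0.031, that of the YAP/TAZ-TEAD targets -0.304 and -0.596, and that of glycolysis and hypoxia 0.417 and 0.663. The medians carry no test.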

How the data were processed

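Poly(A) RNA of the H2052 cells was sequenced as single-end reads. Per the labels, bcl2fastq 2.20.0.422 was used and the genome build was hg19, while the sources used here name no aligner, counter, annotation, library kit or strandedness. The authors deposited whole-number read counts per gene, not normalized, in a table of 31017 rows. The 63 rows repeating an identifier were kept, and counts of rows with the same identifier were added together. Tables holding the authors' own fold changes and p-values were not used, nor were 16 count columns that match no described sample.

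Groups came from the sample labels. Genes with at least 0.5 CPM in all 6 libraries were tested with edgeR 4.0.16 (R 4.3.3) by quasi-likelihood F test with TMM factors, and p-values were adjusted by Benjamini-Hochberg over all genes tested, with a threshold of 0.05. Each standard error was taken as the size of the log2 fold change over the square root of F. CPM values are TMM-normalised. Genes that overlap or have near-identical copies may share reads. With 3 libraries in each group no exact permutation test can reach a p under 0.1, so none was used. The p-values measure the spread between these libraries, with total counts of 3988479 to 13418485.

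Text names NF1, all members of the described gene lists of up to 12 genes, at most 8 members of longer lists by smallest p, and the 12 largest rises and falls among called genes whose groups did not overlap and whose log2 CPM averaged 3 or more. Members and lists were chosen with earlier results of these data known. Transcript features came from GENCODE v29, matched by gene identifier for 97.3% of tested genes, and sequences were read from its transcripts (GRCh38), whereas gene coordinates are those of the deposited table (hg19). Alternatives were DESeq2 1.42.0, limma 3.58.1 (voom with quality weights), other normalizations and filters, thinning of the deeper libraries, offsets for length, GC content and A-rich windows, the replicate number as a block, all 4 H2052 groups in 1 fit, and leaving out each library, 21 in all, of which both offsets that use A-rich windows were added after the data had been seen. The scripts were tested on simulated data. Some members of the lists are counted but not reported here by name.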

Additional observations from a re-analysis of the deposited data

How the results depend on the processing

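The count of 3420 called genes kept within 1.5 times under 13 of 21 alternatives, but it was 6554 with voom with quality weights and 918 (22.1% of them higher) when all 4 H2052 groups shared 1 fit, and it ranged from 1779 to 6409 when 1 library was left out, the highest without parental replicate 3 and the lowest without NF1 mutant replicate 1. DESeq2 called 3690 genes, of which 3370 were among the 3420 with the same direction, and without parental replicate 3 the number of shared calls was 3419. With an offset for A-rich windows 2697 calls remained in the same direction and 1 was opposite, and with windows, length and GC content in 1 offset 2682 remained and 2 were opposite. The replicate numbers did not pair the samples: deviations of same-numbered libraries correlated at 0.104, -0.145 and -0.022, and with the replicate block 2986 genes were called. In VT107, edgeR's 0 calls became 682 with DESeq2, 3599 with voom, 196 without the filter, 6 with GC offsets and 1275 with all 4 groups in 1 fit, and 0 to 184 when 1 library was left out (82 without parental VT107 replicate 3 and 184 without NF1 mutant VT107 replicate 1). There, offsets for A-rich windows, length or GC content moved the median of all genes from -0.022 to between 0.105 and 0.118. Of 8091 pairs of a named gene and an alternative, 686 lost and 274 gained a call, and 10 reversed, all under the offsets that use A-rich windows: RASAL2 came to 0.119 (0.161 with windows, length and GC content together), MEG3 to 0.046 (0.003), THBS1 to 0.111 (0.126), CCDC80 to 0.124 (0.157) and NRIP1 to 0.115 (0.183). These offsets were fitted on the same libraries, so a fall shared by genes with many windows shrinks by construction. The cause was not tested. The mutant libraries' 3988479 to 5489092 counts limit what can be said of genes with few reads, and genotype and library set cannot be told apart at any setting.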

Other observations

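Replication-dependent histone genes were looked up after HIST1H4C had appeared among the largest falls, so their values are a description. Of 72 genes with a HIST symbol, 7 were tested and 6 were lower by edgeR's quasi-likelihood test, with a median log2 fold change of -1.63. HIST1H1C, a linker histone gene, stood at 62.5, 37.1 and 16.6 CPM in parental and at 5.31, 5.05 and 5.52 CPM in NF1 mutant libraries (-2.87). HIST2H2BE (-2.09), HIST1H2AC (-1.63), HIST1H4H (-1.36) and HIST1H2BD (-1.19) were also lower, and HIST1H2BK (-0.35) did not pass. Transcripts of this class mostly end without a poly(A) tail.

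The CPM minimum in every library kept out 118 genes whose group means differed at least 4-fold and reached a mean of 3 CPM in one group. The parental mean was the higher for 114 of them and the NF1 mutant mean for 4. ZFP91-CNTF, a readthrough transcript that overlaps ZFP91, had 1092, 941 and 569 counts in parental and 2, 3 and 3 in NF1 mutant libraries. HOOK3, a dynein adaptor, had 244, 225 and 96 counts against 1, 0 and 4, and CDK11A 389, 346 and 153 against 7, 2 and 1. These genes were named after their values had been seen and carry no test.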
